A study of Homo sapiens with 12 samples.

Results

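The core circadian clock genes were read in HK-2, an immortalised human cell line from the epithelium of the renal proximal tubule, after low-dose Ota or vehicle. The set was defined by name and holds 10 genes: PER1, PER2, PER3, CRY1, CRY2, BMAL1, CLOCK, NR1D1, NR1D2 and DBP. Of these, 8 had probe sets annotated to a single gene symbol, 18 probe sets in all out of the 54613 on the array that are no controls. PER1 was annotated on 4 probe sets, each shared with MIR6883, and NR1D1 on 3, each shared with THRA, so neither gene was read. CRY2 did not pass the filter on low values, which left 7 clock genes among the 10699 genes tested.

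The study holds 12 arrays in 4 groups of 3: Ota cells at 24 h, vehicle control cells at 24 h, Ota cells at 72 h and vehicle control cells at 72 h. All groups were plated the day before exposure, exposed near confluency and kept in defined medium with epidermal growth factor, hydrocortisone, insulin, transferrin and selenite. Hydrocortisone is a glucocorticoid, and glucocorticoids are known to act on clock genes in cultured cells. The labels give no concentration for the low dose, do not spell out Ota and give no clock time of harvest. Both times are whole days after exposure began, so a rhythm, its phase and its amplitude cannot be read from these levels.

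The clock is a transcriptional feedback loop. BMAL1 and CLOCK pair and activate genes with E-box sequences in their promoters, among them the PER and CRY genes, whose proteins return to inhibit that pair. A second arm consists of the nuclear receptors NR1D1 and NR1D2, known as REV-ERB alpha and beta, which repress BMAL1 through ROR elements. DBP is an output activator that binds D-box sequences, which also stand in PER gene promoters. In the kidney the clock is known for the daily cycles of filtration, tubular transport and electrolyte excretion.

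Promoter windows of 4 genes are shown because these genes changed between groups or over time below. PER3, NR1D2 and BMAL1 have 2 windows each, and the one shown is the one with a motif match, since the other had none. Each is a 300-base window around a RefSeq start site in GRCh38.p14, written 5′ to 3′ on the gene's strand. Capitals mark the letters of the searched motifs: the E-box CACGTG, its variant CACGTT, the D-box form TTANGTAA and the receptor half-site AGGTCA, on either strand. The windows lie at chr2:238288561-238288860 on the minus strand for PER2, and on the plus strand at chr1:7784041-7784340 for PER3, chr3:23945871-23946170 for NR1D2 and chr11:13277540-13277839 for BMAL1.
PER2: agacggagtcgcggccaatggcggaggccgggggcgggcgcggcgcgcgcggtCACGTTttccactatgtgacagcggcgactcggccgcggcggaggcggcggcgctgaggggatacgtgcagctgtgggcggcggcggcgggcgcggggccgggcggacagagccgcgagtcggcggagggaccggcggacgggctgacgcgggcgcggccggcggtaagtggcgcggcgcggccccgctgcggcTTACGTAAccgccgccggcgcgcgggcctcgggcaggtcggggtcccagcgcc
PER3: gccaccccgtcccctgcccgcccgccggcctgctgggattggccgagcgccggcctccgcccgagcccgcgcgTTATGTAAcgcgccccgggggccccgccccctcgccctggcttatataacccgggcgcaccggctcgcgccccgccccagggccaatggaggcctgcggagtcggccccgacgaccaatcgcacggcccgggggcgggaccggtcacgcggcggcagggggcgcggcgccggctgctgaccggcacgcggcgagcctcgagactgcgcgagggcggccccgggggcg
NR1D2: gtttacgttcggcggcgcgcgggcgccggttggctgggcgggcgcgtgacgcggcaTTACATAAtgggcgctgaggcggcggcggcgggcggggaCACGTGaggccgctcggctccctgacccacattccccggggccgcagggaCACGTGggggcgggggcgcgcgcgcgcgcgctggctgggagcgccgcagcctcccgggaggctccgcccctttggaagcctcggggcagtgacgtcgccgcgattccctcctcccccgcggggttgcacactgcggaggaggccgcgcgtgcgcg
BMAL1: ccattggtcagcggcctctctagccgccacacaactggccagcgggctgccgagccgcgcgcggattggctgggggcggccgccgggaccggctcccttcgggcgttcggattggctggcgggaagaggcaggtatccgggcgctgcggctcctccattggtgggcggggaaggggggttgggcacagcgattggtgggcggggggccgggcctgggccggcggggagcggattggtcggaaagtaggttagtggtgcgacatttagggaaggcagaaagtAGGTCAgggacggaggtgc

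The PER2 window held CACGTT with its first base at position -197 from the start site, and TTACGTAA from position -3, reaching across that site. PER3 carried the D-box form TTATGTAA and neither E-box form. The NR1D2 window held CACGTG at 2 places and the D-box form once, and the BMAL1 window held AGGTCA after its start site. Over the 15 RefSeq windows of the 10 clock genes, CACGTG was found in 2, CACGTT in 5, the D-box form in 3 and AGGTCA in 4. The same letters occurred in 7.26%, 5.34%, 2.18% and 13.8% of all 35116 windows, in that order of motifs. No 2 of the matches in the clock genes' windows overlapped. These matches are letters in a window and were not set against any measure of binding.

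At 72 h the period genes and one nuclear receptor differed between Ota and control cells, in opposite directions. PER3 was higher in Ota cells by 1.17 ± 0.14 on the log2 scale (SE, 2.25-fold), PER2 lower by 1.71-fold and NR1D2 lower by 1.30-fold. BMAL1, CLOCK, CRY1 and DBP did not pass the test. Thus 3 of 7 clock genes were called, 1 higher and 2 lower, at an adjusted p below 0.05 in limma. Over all genes tested, 32.0% were called at 72 h, with 17.1% higher and 14.9% lower, so the clock genes' count of 3 is near that background. The median log2 difference was -0.24 over the clock genes and 0.01 over all genes. At 24 h 0 of 7 clock genes were called by limma, against 31.0% of all genes (9.44% higher, 21.6% lower), and 2 of the 7 had an unadjusted p below 0.05, PER3 and DBP. Blocking on replicate number called DBP at 24 h. That block gave each number a shared effect over the arrays of both times, so it is no paired test of the 24 h arrays alone. The count of 0 comes from the fit without replicate numbers, and no paired test of the 24 h arrays was run.

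**Figure D1:**
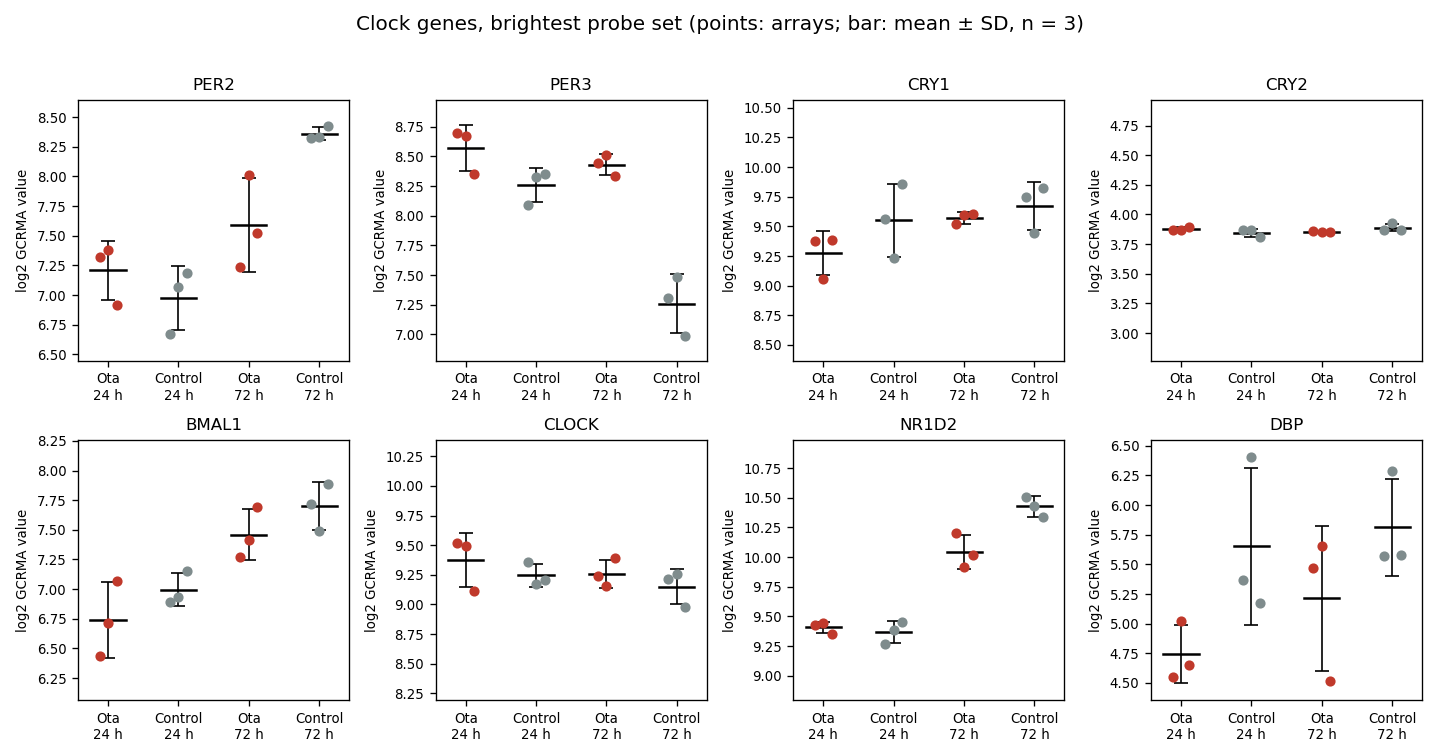
Log2 GCRMA value (y axis) of the 8 readable clock genes on each of the 12 arrays (points), by group (x axis), with mean and SD bars over 3 arrays. PER3 stands apart in control cells at 72 h (6.99 to 7.48), PER2 and NR1D2 are highest there, and CRY2 lies between 3.81 and 3.92 everywhere.

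PER2 and PER3 encode period proteins, the repressors that pair with cryptochromes. At 72 h PER2 read 7.23, 8.01 and 7.52 in Ota cells and 8.33, 8.34 and 8.42 in control cells (log2 GCRMA values of its brightest probe set). At 24 h it read 7.32, 7.38 and 6.92 in Ota cells and 6.67, 7.07 and 7.19 in control cells. The 72 h groups did not overlap, and the 24 h groups did. The difference at 72 h was -0.77 ± 0.20 (SE, adjusted p = 0.0121 in limma) and at 24 h 0.23 ± 0.20 (adjusted p = 0.414 in limma). Without replicate 1 of the Ota cells at 72 h, the lowest of the 3, the 72 h difference was -0.59 with an adjusted p of 0.0537 in limma.

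PER3 went the other way. At 72 h it read 8.44, 8.51 and 8.34 in Ota cells and 7.31, 7.48 and 6.99 in control cells. At 24 h it read 8.70, 8.68 and 8.35 in Ota cells and 8.09, 8.33 and 8.35 in control cells. Of its 12 values, the 3 lowest are those of the control cells at 72 h, and the other 9 lie between 8.09 and 8.70. The 72 h difference of 1.17 had an adjusted p of 0.000135 in limma, and the 24 h difference was 0.32 ± 0.14 (SE, adjusted p = 0.110 in limma). Leaving out any 1 array kept the 72 h call, with differences from 1.03 to 1.28. PER3 was read from a probe set whose probes can match other transcripts, and its other 3 probe sets lay below the filter on every array. Averaging all of a gene's probe sets, those at the floor included, gave 72 h differences of 0.37 for PER3 and -0.39 for PER2, both called (adjusted p of 0.00728 and 0.0181 in limma). PER2's second probe set stayed between 2.19 and 2.21, so averaging scaled down the difference and the spread of the first alike. For PER3 the average likewise rests mainly on its brightest probe set. These averages are therefore no separate support for the 2 calls.

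The Ota response itself differed between times for both period genes. Its difference, 72 h minus 24 h, was 0.85 ± 0.20 for PER3 (SE, adjusted p = 0.0122 in limma) and -1.004 ± 0.28 for PER2 (SE, adjusted p = 0.0262 in limma). For NR1D2 it was -0.42 ± 0.13 (SE, adjusted p = 0.0453 in limma). These 3 of 7 genes were called, 1 higher and 2 lower, where 21.3% of all genes were (15.5% higher, 5.79% lower). In the fit of probe sets neither NR1D2 probe set was called (-0.42 and -0.38, adjusted p of 0.0616 and 0.242 in limma). There 1 CLOCK probe set was called (-0.44, adjusted p = 0.0426 in limma), while CLOCK's other tested ones were not. The NR1D2 call was lost in 10 of the 12 fits that left out an array and the PER2 call in 6, with differences from -0.50 to -0.35 and from -1.22 to -0.83. NR1D2 kept it without control replicate 3 at 24 h or Ota replicate 1 at 72 h. PER2 lost it without Ota replicate 1 or 2 or control replicate 1 at 24 h, and without Ota replicate 1 or 3 or control replicate 3 at 72 h. PER3 kept this call in all 12, with differences from 0.72 to 0.97.

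CRY1 and CRY2 encode cryptochromes, the partners of the period proteins. CRY1 read 9.38, 9.06 and 9.38 in Ota cells and 9.56, 9.23 and 9.85 in control cells at 24 h. At 72 h it read 9.52, 9.59 and 9.61 in Ota cells and 9.74, 9.44 and 9.83 in control cells. The groups overlapped at both times, and the differences of -0.28 ± 0.16 and -0.10 ± 0.16 (SE) had adjusted p of 0.214 and 0.670 in limma. Without replicate 2 of the control cells at 24 h the 24 h difference was -0.43, with an adjusted p of 0.0487 in limma. CRY2 was read from 1 probe set that stayed between 3.81 and 3.92 on all arrays, under the filter of 4, so no difference was tested.

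BMAL1 and CLOCK form the activating pair. BMAL1 read 7.27, 7.42 and 7.69 in Ota cells and 7.72, 7.49 and 7.89 in control cells at 72 h. At 24 h it read 6.44, 6.71 and 7.07 in Ota cells and 6.90, 6.94 and 7.15 in control cells. Ota and control arrays overlapped at both times. The 72 h over 24 h difference was 0.72 ± 0.17 in Ota cells (SE, adjusted p = 0.00818 in limma) and 0.70 ± 0.17 in control cells (SE, adjusted p = 0.00533 in limma). Ota against control gave -0.25 ± 0.17 at 24 h and -0.24 ± 0.17 at 72 h (SE, adjusted p of 0.289 and 0.313 in limma), with intervals that include values up to 0.12 and 0.13 above 0. Its second probe set gave the same picture, with 72 h over 24 h differences of 0.94 in Ota cells and 0.86 in control cells. The probes of both BMAL1 probe sets can match other transcripts.

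CLOCK shows how much the probe set matters. Its brightest probe set read 9.52, 9.49 and 9.11 in Ota cells and 9.36, 9.17 and 9.20 in control cells at 24 h, a difference of 0.13 ± 0.13 (SE, adjusted p = 0.485 in limma). A second probe set read 9.36, 9.51 and 9.41 in Ota cells and 8.67, 8.74 and 8.76 in control cells at 24 h, with no overlap. Its difference was 0.70 ± 0.09 (SE, adjusted p = 0.000216 in limma over 22477 probe sets), while the other tested one gave 0.11 ± 0.10 (SE, adjusted p = 0.448 in limma). At 72 h the 3 differences were 0.11, 0.26 and 0.18, and 0 of the 3 was called. The last CLOCK probe set lay at the floor near a log2 value of 2.00. The mean of CLOCK's probe sets, in place of the brightest, gave 0.24 at 24 h with an adjusted p of 0.0274 in limma.

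NR1D2, the repressor of the second arm, read 10.20, 9.92 and 10.02 in Ota cells and 10.51, 10.43 and 10.34 in control cells at 72 h, with no overlap. At 24 h it read 9.43, 9.44 and 9.35 in Ota cells and 9.27, 9.39 and 9.45 in control cells, which overlap. The difference was -0.38 ± 0.09 at 72 h (SE, adjusted p = 0.0102 in limma) and 0.04 ± 0.09 at 24 h (SE, adjusted p = 0.804 in limma). Its second probe set gave -0.51 ± 0.15 at 72 h (SE, adjusted p = 0.0254 in limma over probe sets) and -0.13 ± 0.15 at 24 h (SE, adjusted p = 0.572 in limma). Of the 11 clock probe sets fitted on their own, 1 was called at 24 h and 4 at 72 h, where 31.0% and 28.2% of all probe sets were.

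DBP, the output activator, read 4.55, 5.02 and 4.66 in Ota cells and 5.37, 6.41 and 5.18 in control cells at 24 h, with no overlap. At 72 h it read 5.47, 5.65 and 4.52 in Ota cells and 5.57, 6.29 and 5.58 in control cells, which overlap. The differences were -0.91 ± 0.36 and -0.60 ± 0.36 (SE), with adjusted p of 0.0754 and 0.227 in limma. With the replicate number as a block the 24 h difference had an adjusted p of 0.00741 in limma. DBP was read from a probe set whose probes can match other transcripts.

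**Figure D2:**
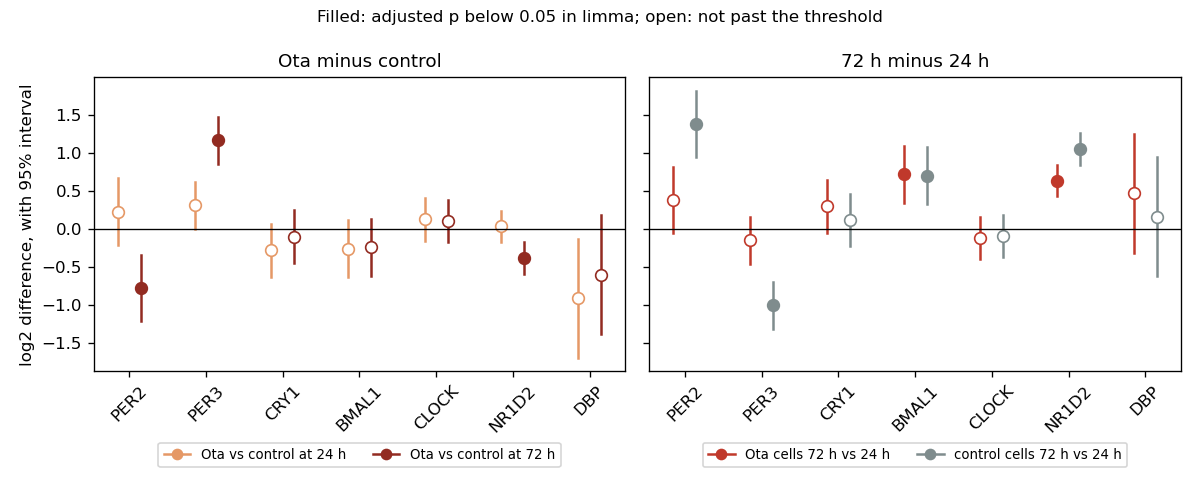
Log2 differences (y axis) of the 7 tested clock genes with 95% intervals, Ota minus control at each time (left) and 72 h minus 24 h in Ota cells and in control cells (right). Filled points passed an adjusted p of 0.05: PER3 above 0, PER2 and NR1D2 below 0 at 72 h on the left.

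**Figure D3:**
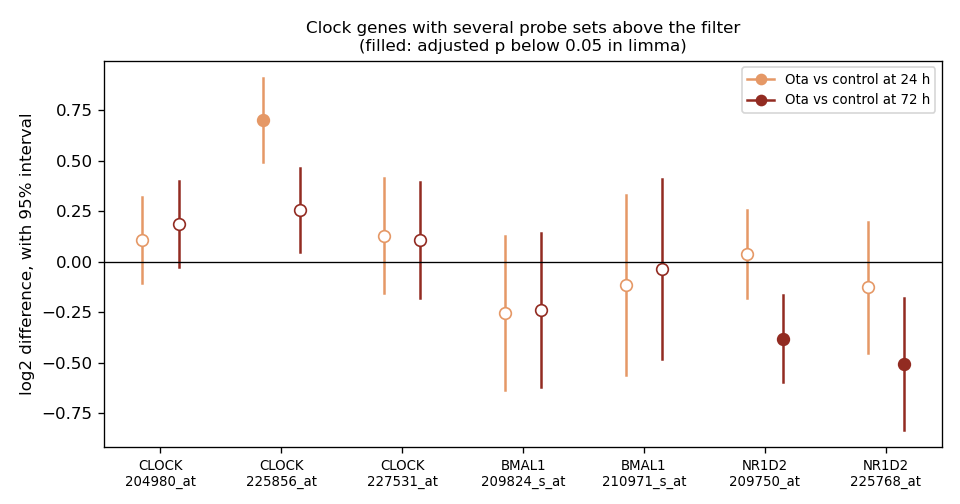
Log2 difference, Ota minus control (y axis), for each tested probe set of CLOCK, BMAL1 and NR1D2, with 95% intervals. At 24 h the middle CLOCK probe set (0.70) stands apart from its companions, and both NR1D2 probe sets are below 0 at 72 h.

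Time in culture was compared as well. In control cells 4 of 7 were called between 72 h and 24 h, 3 higher and 1 lower, where 46.4% of all genes were (22.7% higher, 23.6% lower). PER2 rose by 1.39 ± 0.20, NR1D2 by 1.06 ± 0.09 and BMAL1 by 0.70 ± 0.17, and PER3 fell by 0.997 ± 0.14 on the log2 scale (SE). The adjusted p of PER2, NR1D2 and PER3 were 0.00018, 6.66e-06 and 0.00016 in limma. In Ota cells 2 of 7 were called, NR1D2 with 0.64 ± 0.09 (SE, adjusted p = 0.000656 in limma) and BMAL1, both higher, where 32.2% of all genes were called (22.2% higher, 9.99% lower). Averaging probe sets added CLOCK, lower by 0.23 in Ota cells (adjusted p = 0.0279 in limma). Fitted on their own, 2 of the 3 tested CLOCK probe sets were lower over time in Ota cells, with -0.50 and -0.31, and 1 in control cells, with -0.39. PER2 gave 0.38 ± 0.20 and PER3 -0.14 ± 0.14 in Ota cells (SE, adjusted p of 0.162 and 0.468 in limma). The comparison at 72 h and the change over time in control cells share the control arrays at 72 h, so their values are not independent.

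The order of levels across the 4 groups follows. For NR1D2 it ran from control 72 h over Ota 72 h to the 24 h groups, and each of the first 2 gaps had no overlap. For PER2 control 72 h was highest with a gap, and the other 3 groups overlapped as neighbours. For PER3 the control 72 h group was lowest with a gap, below the other 3. BMAL1 had its 72 h groups above its 24 h groups with a gap. For CRY1, CLOCK and DBP all neighbours in the order overlapped. Counting genes with no overlap between Ota and control arrays gave 1 of 7 at 24 h and 3 of 7 at 72 h, against 42.7% and 51.4% of all genes.

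Genes with the most similar pattern over the 12 arrays were found by Pearson r, given as a description. The arrays share the 4 groups, so such r follow the differences between groups. NR1D2 was matched most closely by SNHG32, ALDH6A1 and NBR1 (r of 0.98, 0.97 and 0.97). PER3 was closest to EED, HELLS and IPO9 (r of 0.97, 0.96 and 0.96), and PER2 to ACBD3, ISG20 and FYN (r of 0.97, 0.96 and 0.96). At 72 h HELLS, a chromatin helicase gene, was higher in Ota cells by 1.74 ± 0.16, and FYN, a tyrosine kinase gene, lower by 1.13 on the log2 scale (SE, adjusted p of 2.83e-05 and 0.00097 in limma).

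Other genes of the loop, its regulators and its outputs were read from lists, whose counts stand beside 31.0% of all genes called at 24 h (9.44% higher, 21.6% lower) and 32.0% at 72 h (17.1% higher, 14.9% lower). Of the 13 loop partners, 10 were tested, with 1 lower at 24 h and 4 higher at 72 h. Their median log2 difference was 0.11 at 24 h and 0.30 at 72 h, beside -0.06 and 0.01 over all genes. BHLHE40 and BHLHE41 encode repressors that compete at E-boxes. BHLHE40 read 9.87, 9.54 and 10.24 in Ota cells and 8.84, 8.33 and 8.74 in control cells at 72 h, without overlap. Its difference was 1.24 ± 0.19 (SE, adjusted p = 0.000539 in limma), and both its probe sets were higher at 72 h. At 24 h it was 0.46 ± 0.19 (SE, adjusted p = 0.0847 in limma, and 0.00937 with the replicate block). BHLHE41 was higher at 72 h by 0.34 ± 0.08 (SE, adjusted p = 0.0100 in limma), and all 3 of its tested probe sets were called higher.

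TIMELESS, which protects replication forks and whose fly namesake is a clock gene, turned round between times. It read 8.78, 8.87 and 8.79 in Ota cells and 9.49, 9.40 and 9.45 in control cells at 24 h. At 72 h it read 8.87, 8.64 and 8.74 in Ota cells and 8.11, 7.93 and 7.92 in control cells. The differences were -0.63 ± 0.09 and 0.76 ± 0.09 (SE, adjusted p of 0.000306 and 0.000112 in limma). From 24 h to 72 h TIMELESS fell by 1.46 in control cells and gave -0.06 in Ota cells (adjusted p of 7.34e-07 and 0.616 in limma). HLF, a D-box activator of the same family as DBP, was higher at 72 h by 0.40 ± 0.14 (SE, adjusted p = 0.0446 in limma) on its brightest probe set, a call lost in 9 of the 12 fits that left out an array. Its other 2 probe sets were called higher at both times, with 1.57 and 0.77 at 24 h and 1.13 and 0.48 at 72 h.

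The remaining loop partners did not pass the gene test. NPAS2, a CLOCK homologue, gave 0.30 at 24 h and 0.37 at 72 h, and its other tested probe set was called higher at 72 h (0.70, adjusted p = 0.0011 in limma). BMAL2, a BMAL1 homologue, gave -0.69 and 0.26, and all 3 of its probe sets were lower at 24 h and higher at 72 h. Of these, 1 was called at 24 h (-0.82) and another at 72 h (0.69). The mean of BMAL2's probe sets was called at both times (-0.60 and 0.49, adjusted p of 0.0142 and 0.0373 in limma). NFIL3, a D-box repressor, gave 0.10 and -0.30, TEF 0.11 and 0.11, and CIART -0.03 and -0.0016. RORA, an activator at ROR elements, lay at the floor, between 2.59 and 2.80.

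**Figure D4:**
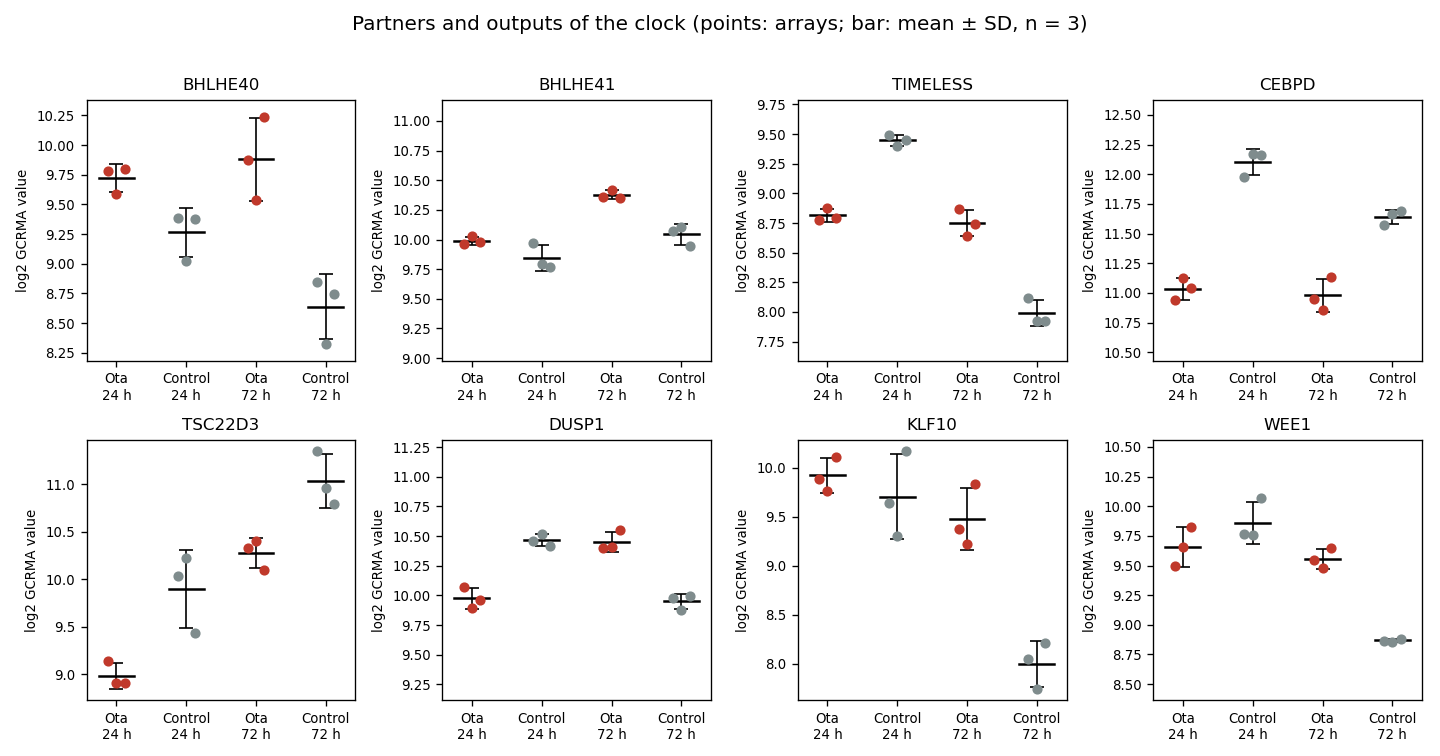
Log2 GCRMA value (y axis) of 8 genes from the partner, output and glucocorticoid lists on each of the 12 arrays (points), by group (x axis), with mean and SD bars over 3 arrays. BHLHE40 and KLF10 are lowest in control cells at 72 h, TIMELESS and DUSP1 cross over between times, and TSC22D3 is lower in Ota cells at both times.

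Kinases, ligases and phosphatases of clock proteins were mixed. Of 20 genes 18 were tested, with 6 higher and 1 lower at 24 h, and 2 higher and 1 lower at 72 h, against 31.0% and 32.0% of all genes called, and medians of 0.15 and 0.11. PRKAA2, a catalytic subunit of AMP-activated kinase, was higher by 0.61 ± 0.11 at 24 h and by 1.01 ± 0.11 at 72 h (SE, adjusted p of 0.00151 and 7.85e-05 in limma). FBXW11, a ligase subunit that recognises period proteins, was higher by 0.54 ± 0.08 at 24 h and gave 0.03 at 72 h (SE, adjusted p of 0.000456 and 0.842 in limma). CSNK1D and CSNK1E, casein kinases that phosphorylate period proteins, depended on the probe set. CSNK1D was higher by 0.26 at 24 h on its brightest, and another was lower by 0.32. The CSNK1D call was lost in 5 of 21 alternatives, and the difference turned sign in 1 more. CSNK1E gave -0.26 and -0.36 without a call, while its other probe set was lower by 1.62 on the log2 scale at 24 h and by 1.09 at 72 h. The brightest CSNK1E probe set read only 4.50 to 5.16 over all arrays, and the other was dimmer on average. With these differences, the mean of the dimmer CSNK1E probe set in Ota cells at 24 h lay under the filter of 4. Its differences were thus read partly below the filter, and their size is uncertain. SIRT1, a deacetylase that acts on clock proteins, was lower at 72 h by 0.44 (adjusted p = 0.018 in limma), a call lost without replicate 1 of the Ota cells (-0.31) or replicate 2 of the control cells (-0.38). BTRC, CUL1 and PRKAA1 were also called higher and CSNK2A1 lower at 24 h, and averaging each gene's probe sets ended all 4 calls. Over 21 alternatives the CUL1 call was lost in 13, that of CSNK2A1 in 9, that of PRKAA1 in 4 and that of BTRC in 1. The other tested BTRC probe sets went the other way at 24 h, with -0.13 and -0.44, and were not called. Another CSNK2A1 probe set was called higher at both times (0.53 and 0.43). A PRKAA1 probe set beside the brightest was also called higher at both times (0.65 and 0.48). The remaining tested ones of PRKAA1 gave -0.03 and -0.27 at 24 h and were not called at either time. CUL1 was also called higher at 72 h (0.32), a call lost in 5 of 21.

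Among 15 clock output genes, 11 were tested, 0 were called at 24 h and 4 were higher at 72 h, against 31.0% and 32.0% of all genes called in either direction, with medians of 0.01 and 0.19. At 24 h 0 of the 11 had an unadjusted p below 0.05 in limma. KLF10, a clock-controlled transcription factor, read 9.37, 9.22 and 9.84 in Ota cells and 8.05, 7.74 and 8.21 in control cells at 72 h. Its difference was 1.48 ± 0.22 (SE, adjusted p = 0.000556 in limma). WEE1, a cell cycle kinase, was higher by 0.69 ± 0.11, LEO1 by 0.82 ± 0.14 and CDKN1A, a cyclin kinase inhibitor, by 0.77 ± 0.12 (SE, adjusted p of 0.000856, 0.0013 and 0.000764 in limma). At 24 h the WEE1 probe sets gave -0.21 and -0.58, and the second was called. From 24 h to 72 h KLF10, WEE1 and LEO1 gave -1.71, -0.99 and -1.35 in control cells, all called. In Ota cells they gave -0.45, -0.10 and -0.34 without a call. CDKN1A rose over time in both, by 0.44 in control cells and 0.96 in Ota cells.

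All 4 groups had hydrocortisone in the medium. Of 12 glucocorticoid-response genes 10 were tested, with 1 higher and 4 lower at 24 h, 3 higher and 2 lower at 72 h, against 31.0% and 32.0% of all genes called, and medians of -0.27 and 0.25. TSC22D3, also called GILZ, read 9.14, 8.91 and 8.90 in Ota cells and 10.03, 10.22 and 9.43 in control cells at 24 h. At 72 h it read 10.32, 10.40 and 10.09 in Ota cells and 11.34, 10.96 and 10.79 in control cells. The differences were -0.91 ± 0.20 and -0.76 ± 0.20 (SE, adjusted p of 0.00476 and 0.0128 in limma), and both tested probe sets were lower at both times. The 72 h call was lost without replicate 3 of the Ota cells or replicate 1 of the control cells (adjusted p of 0.0514 and 0.0551 in limma).

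CEBPD, a stress-responsive transcription factor, was lower by 1.07 ± 0.10 at 24 h and by 0.66 ± 0.10 at 72 h on the log2 scale (SE, adjusted p of 1.76e-05 and 0.000515 in limma). Its second probe set gave 0.01 at 24 h and was higher by 0.61 at 72 h. DUSP1, a MAP kinase phosphatase, gave -0.49 ± 0.08 at 24 h and 0.50 ± 0.08 at 72 h (SE, adjusted p of 0.00109 and 0.00103 in limma), and the 24 h call was lost with the mean of its probe sets (-0.17). SGK1, a kinase that controls sodium transport, was lower at 24 h by 0.49 on the log2 scale (adjusted p = 0.00755 in limma). NFKBIA was higher at 72 h by 0.94 (adjusted p = 0.00139 in limma). TFCP2L1 gave 0.69 at 24 h on its brightest probe set and 0.86 on another, both called higher, while the remaining one was called lower, with -1.27 at 24 h and -0.69 at 72 h. GADD45B was called higher at 72 h (0.70), with overlapping groups, and lost the call in 12 of 21 alternatives.

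The smaller lists hold few tested genes. Their counts stand beside 31.0% of all genes called at 24 h and 32.0% at 72 h. They cannot be read as a trait of these lists. Of 9 cAMP and serum response genes 6 were tested, with CRTC2 higher at 24 h (0.54) and EGR1 higher at 72 h (0.94, adjusted p = 0.00772 in limma). Of 7 tubule transport genes linked to PER1, 4 were tested, and SCNN1A, a subunit of the epithelial sodium channel, was lower at 24 h by 0.44 (adjusted p = 0.0113 in limma), a call lost with the mean of its probe sets (-0.04). The CRTC2 call was lost in 6 of 20 alternatives. CRTC2 exceeded the filter of 4 only on the Ota arrays at 24 h (4.15 to 4.59), the group then called higher. Its control arrays at 24 h read 3.74 to 3.88. CRTC2 was thus tested through that group alone, and its call cannot be read as a response.

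Within a group, arrays correlated with r from 0.986 to 0.994, and the upper quartile of all probe sets ranged from 6.89 to 7.11. The 3' minus 5' actin signal, a sign of RNA quality, ranged from 1.06 to 1.33 in Ota cells and from 0.89 to 1.33 in control cells. Of 12 proximal tubule markers 10 had a single-symbol probe set, and PAX8 alone was above the filter, so defining transporters and receptors such as LRP2, CUBN and SLC34A1 were not seen. All 5 epithelial markers were present, as were 2 of 4 podocyte markers, and no marker of endothelium (5 read), leukocytes (4 read) or distal nephron (4 read) was above the filter. Fibroblast markers COL1A1, DCN and LUM, 3 of 6, were above the filter. The mean level of the fibroblast list was 5.93 to 6.09 in Ota cells and 5.43 to 5.58 in control cells at 72 h, and overlapped at 24 h. The epithelial list averaged 11.2 to 11.3 in Ota cells and 11.5 to 11.7 in control cells at 72 h. The part of either list in the 72 h clock gene differences was not tested. All 12 samples are of the single line HK-2, so these lists give transcript levels in that line and do not count cell types. In bulk RNA, fewer cells expressing a gene and less RNA per cell cannot be told apart.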

How the data were processed

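Expression was measured in HK-2 cells on Affymetrix arrays, 12 arrays in 4 groups of 3. Per the submitters' processing notes, the authors used GCRMA, and the deposited table gives log2 values, 1 for each probe set and array; its version is not given in the sources used here. GCRMA models background from probe sequence and normalizes by quantiles, so values near the floor are compressed and a change of all RNA would be hard to see. Arrays have no read depth, and their number limits the precision.

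Of 54675 probe sets, 62 controls were left out. Names came from the platform annotation, updated through a RefSeq gene table of GRCh38.p14 by gene identifier: 41091 probe sets had 1 symbol, and 1801 had several and named no gene. A gene was read from its single-symbol probe set with the highest mean and tested where that exceeded a log2 value of 4 on 3 or more arrays. Several list genes were read from probe sets whose probes can match other transcripts, among them BHLHE40, BHLHE41, TIMELESS and BMAL2. limma 3.58.1 under R 4.3.3 (lmFit, eBayes) was fitted to all 12 arrays with 1 mean per group, with Benjamini-Hochberg adjustment over 10699 genes and calls below 0.05. A separate fit took 22477 probe sets. The fits were tested on simulated data. Figures used matplotlib 3.10.9 under Python 3.11.15, and data were read with data.table (version 1.17.8).

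Alternatives were other probe-set summaries, scalings, filters, a replicate block, the arrays compared alone and leaving out each array. Same-numbered arrays deviated together at 24 h (r of 0.44, 0.32 and 0.45) and more weakly at 72 h (0.11, 0.07 and 0.27). The numbers were therefore taken to pair the arrays at 24 h, and these values do not settle whether they pair those at 72 h. The 24 h calls given here come from the fit with 1 mean per group, which ignores that pairing. No paired test of the 24 h arrays was run, so what it would call is not known. The replicate block still gave each number a shared effect over both times. Its 24 h values are thus from no paired test of that time. The labels call the arrays biological replicates without saying what the cultures shared, so the p-values reflect only how these samples vary, which may be technical. The clock genes and the other lists were chosen with earlier results of these data known. Named list genes are those called in an Ota comparison, plus 14 loop partners and kinases whatever their values, of which 2 are not reported here; for each clock gene called, the 3 genes most like it are named.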

Additional observations from a re-analysis of the deposited data

Results flagged for a closer look

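The Ota response differed between 72 h and 24 h by a test of the difference itself for 12 named genes, given here as log2 differences, 72 h minus 24 h. Over all genes tested, 21.3% were called (15.5% higher, 5.79% lower). Apart from the partners and kinases named whatever their values, list genes were named because they were called at 24 h or 72 h. That choice favours a called difference, so the count of 12 cannot be read as a trait of these genes. Among the clock genes these were PER3 with 0.85, PER2 with -1.004 and NR1D2 with -0.42. TIMELESS had 1.39, KLF10 1.26, EGR1 1.25, NFKBIA 1.10, LEO1 1.01, DUSP1 0.99, WEE1 0.89 and SCNN1A 0.62, while FBXW11 had -0.51. The calls of EGR1 and KLF10 were lost without the filter on low values (adjusted p of 0.055 and 0.0534 in limma). The SCNN1A call was lost with the mean of its probe sets, at 0.02, and without replicate 1 of the Ota cells at 72 h, at 0.56. What these differences rest on was not tested.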

How the results depend on the processing

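Across the alternatives, 676 of 723 values for the clock genes kept direction and side of the threshold, 21 lost a call, 8 gained one and 18 turned sign. For the other named genes 1404 of 1512 were kept, 80 lost a call, 14 gained one and 14 turned. The 24 h count of clock genes was 1 with the mean of probe sets (CLOCK) and 1 with the replicate block (DBP), and 0 to 1 when leaving out an array. Leaving out an array gave 2 to 3 at 72 h, 1 to 3 for the difference of responses, 4 for control cells and 2 for Ota cells over time. With 1 array left out, the 24 h call was PER3 (without Ota replicate 3), CRY1 (without control replicate 2), or DBP (without control replicate 3 or without Ota replicate 3 at 72 h). The single remaining call of the difference was PER3, without Ota replicate 1, Ota replicate 2 or control replicate 1 at 24 h, or replicate 3 of either 72 h group. PER3 lost that call with the mean of its probe sets (0.30, adjusted p = 0.112 in limma), PER2 without the filter (adjusted p = 0.0772) and NR1D2 with arrays at a common median (adjusted p = 0.0778). At 72 h same-numbered arrays deviated together more weakly than at 24 h (r of 0.11, 0.07 and 0.27), which does not settle whether they pair. The block there added DBP (adjusted p = 0.0449 in limma) and moved the count to 4. Beside DBP and, at 24 h, BHLHE40, the block changed no call of a named gene between Ota and control. Fitting every probe set called 6971 probe sets at 24 h, 6344 at 72 h, 3814 for the difference, 8970 for control cells and 6206 for Ota cells over time, of more features tested. Repeating quantile normalization gave 1397 higher and 842 lower for the difference, against 1659 and 619, and 1945 and 1396 for Ota cells over time, against 2378 and 1069. At a common median the median difference of all genes was 0.14, against 0.09. Some values turned sign, none of them past the threshold after turning, and the cause was not tested: CLOCK to 0.032 for the difference and CIART at 72 h to 0.0238 at a common median; BMAL1 to -0.10 for the difference and FBXW11 at 72 h to -0.0027 with quantile repeated; and with the mean of probe sets NR1D2 -0.0447, CSNK1D -0.0204 and NPAS2 -0.0923 at 24 h, BTRC -0.0732, CSNK2A1 0.09 and SCNN1A -0.0264 at 72 h. Leaving out an array gave -0.14 to 0.18 for BMAL1, -0.15 to 0.0522 for CLOCK and -0.0699 to 0.66 for DBP in the difference, -0.0121 to 0.0772 for NR1D2 and -0.11 to 0.0818 for CIART at 24 h, -0.0368 to 0.27 for CRY1 and -0.0761 to 0.54 for DBP in control cells over time, and -0.0396 to 0.0383 for CIART, -0.0265 to 0.44 for BMAL2 and -0.0068 to 0.053 for FBXW11 at 72 h.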
